A study of Mus musculus with 6 samples.

Results

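The genes described here are 46 mouse genes of the lysosome, of 32451 genes or unnamed transcripts with a probe on the array. They were taken from a list of symbols for lysosomal hydrolases, their activators and transporters, membrane proteins and the lysosomal proton pump. No measured value is part of that list, but it was chosen with earlier results of these data known. They comprise 10 proteases or protease-related enzymes, 10 enzymes that cut sugar or sulfate groups, 7 genes of lipid turnover, 7 genes of the lysosomal membrane or lumen with other tasks, 2 transcription factors and 10 genes of the proton pump. All 46 had a probe, and all were bright enough on every array to be tested. Messenger RNA was measured in BV2 cells, a microglial line of mouse origin that was immortalised and stands in for microglia without being primary cells. The comparison was made between 3 samples that received recombinant murine IL-4 (10 ng/ml, 24 hr) and 3 that received PBS (24 hr), with 1 single-colour Agilent array per sample. Both groups were plated on poly-L-lysine in medium with serum, and the controls, named PBS in the sample labels, are called untreated in the design text. IL-4 is a cytokine that drives macrophages toward an alternatively activated state. No label says that the replicates were separate cultures, so the p-values cover no more than the scatter among these samples, and that scatter may be technical.

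Lysosomes are acidic vesicles in which proteases, glycosidases, sulfatases and lipases break down material taken up from outside the cell or delivered by autophagy. The vacuolar ATPase, a rotary proton pump built from a cytosolic V1 sector and a membrane V0 sector, keeps the lumen acid, which most of these enzymes need. Microglia and macrophages hold large amounts of lysosomal enzyme, with which they digest debris, lipid and myelin. In mammals the transcription factors TFEB and TFE3 bind a short palindrome in the promoters of many lysosomal genes, known as the CLEAR element, whose core is the E-box CACGTG and whose preferred form is TCACGTGA.

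Promoter sequences are shown for the members that hold this element, a feature that played no part in choosing the genes. RefSeq promoter windows of build GRCm38.p6, from 250 bases before to 50 after a gene's start, were found for 38 of the 46 members, 47 windows in all. TCACGTGA was present in a window of 8 of these 38 members (21.1%), against 304 of 27025 genes with a window (1.12%) and 1.56% of the protein-coding genes with a tested probe. CACGTG, which TCACGTGA contains, was present in 14 of the 38 members (36.8%). It was present in 8.09% of all genes with a window and in 9.67% of the protein-coding genes with a tested probe. Of 68 other lysosomal genes with a window, 6 held TCACGTGA (8.82%) and 16 held CACGTG (23.5%). Both motifs equal their own reverse complement, so 1 search covers both strands. In the 30-base stretches printed here, 5′ to 3′ on the gene's strand, capitals mark TCACGTGA.

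Ctsa, chr2:164833749-164833778, plus strand: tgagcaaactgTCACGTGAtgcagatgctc
Ctsa, chr2:164833766-164833795, plus strand: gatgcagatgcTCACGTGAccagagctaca
Ctsd, chr7:142387908-142387937, minus strand: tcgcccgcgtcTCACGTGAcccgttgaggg
Gla, chrX:134601215-134601244, minus strand: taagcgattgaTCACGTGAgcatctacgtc
Gla, chrX:134601182-134601211, minus strand: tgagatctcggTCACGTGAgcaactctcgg
Mcoln1, chr8:3500462-3500491, plus strand: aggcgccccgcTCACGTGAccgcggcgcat
Cln3, chr7:126583340-126583369, minus strand: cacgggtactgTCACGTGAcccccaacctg
Ifi30, chr8:70766842-70766871, minus strand: atccaaaaactTCACGTGAccagacatgct
Atp6v1a, chr16:44139373-44139402, minus strand: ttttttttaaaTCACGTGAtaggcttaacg
Atp6v0d1, chr8:105566050-105566079, minus strand: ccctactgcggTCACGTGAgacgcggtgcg

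The 10 copies lay in the promoters of 8 genes of different roles, and Ctsa and Gla each held 2. The Lamp1 promoter had no copy of the longer form but 4 copies of CACGTG within the 80 bases before its start, which are shown with each core in capitals.

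Lamp1, chr8:13159081-13159160, plus strand: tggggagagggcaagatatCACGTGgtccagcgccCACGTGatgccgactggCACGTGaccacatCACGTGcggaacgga

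A match is a run of letters and does not show that a factor binds there. The IL-4 minus PBS differences of the 8 members with TCACGTGA were above 0 for 4 and below 0 for 4, with a median of 0.05 on the log2 scale. Among the 30 members with a window but no copy, 8 differences were above 0 and 22 below, with a median of -0.10. Of all genes tested 56.5% lay below 0. These counts use the brightest probe of each gene. Of the 4 members with TCACGTGA above 0, Ctsa, Cln3 and Atp6v1a each had a dimmer probe below 0, at -0.52, -0.34 and -0.03. A further Cln3 probe was at 0.21. Of the members without a copy, Gaa was below 0 with a dimmer probe at 0.14. Within slide 1, where 1 PBS array is the comparison, 5 of the 8 members with TCACGTGA were above 0 (median 0.12), and so were 19 of the 30 without it (median 0.06).

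The arrays did not separate by treatment alone. The 3 IL-4 arrays and PBS replicate 1 were on slide 1, and PBS replicates 2 and 3 were on slide 2, per the scanner records. Over all genes PBS replicate 1 correlated at 0.994 to 0.997 with the IL-4 arrays and at 0.989 with each of the other PBS arrays, which correlated with each other at 0.997. For Arg1, arginase 1, a gene that IL-4 induces in mouse macrophages, PBS replicate 1 stood with its group: log2 signal was -1.39, -1.56 and -1.23 on the IL-4 arrays, against -3.68, -3.44 and -3.12 on the PBS arrays. On slide 2 there was no IL-4 array, so a slide difference and a difference between cultures cannot be told apart among the PBS arrays. The members' differences over all 6 arrays are therefore accompanied, in the text or in the plot of differences by gene, by those within slide 1, where the 3 IL-4 arrays are set against 1 PBS array. Between 87.9% and 98.0% of probes were well above background on an array. The 12 microglia and macrophage markers were all well above background on all 6 arrays, and their summed signal was 55.9 to 62.2 times the 75th percentile with IL-4 and 62.4 to 77.8 times with PBS. The resident microglia genes Cx3cr1 and C1qa were dim, with a mean log2 signal of -2.99 and -3.93 with IL-4 and of -2.79 and -4.10 with PBS. Among the markers Aif1 fell by 0.72 on the log2 scale (limma, adjusted p = 0.037), with -0.49 within slide 1 and an adjusted p of 0.233 with slide as a block. Tyrobp fell by 0.95 (limma, adjusted p = 0.040), with -0.54 within slide 1 and an adjusted p of 0.225 with slide as a block, so neither was called in that fit. Of 6 markers each, 6 for oligodendrocytes, 5 for neurons, 4 for astrocytes and 3 for lymphocytes were well above background on all 6 arrays. Sums were taken over the listed markers with a value on all 6 arrays. In the same order they were 3.54 to 3.97, 2.09 to 2.47, 0.621 to 0.637 and 1.71 to 1.83 times the 75th percentile with IL-4. With PBS they were 1.99 to 3.40, 1.65 to 1.93, 0.557 to 0.604 and 0.810 to 1.42 times. The astrocyte sum leaves out Aqp4, with no value on PBS replicate 3, and the lymphocyte sum Cd4, with none on PBS replicate 2. Both were bright, with a mean log2 signal of 3.66 and 3.10 with IL-4 and of 3.58 and 1.68 with PBS. Endothelium sums were 10.56 to 13.89 times with IL-4 and 10.97 to 15.77 times with PBS. Marker sums of endothelium and fibroblasts overlapped between the groups. The part of these shifts in the lysosomal results was not tested.

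IL-4 left most of the lysosomal messenger RNAs without a difference that passed the test. Of the 46 members 0 rose, 1 fell and 45 did not pass at a Benjamini-Hochberg adjusted p under 0.05, where 0.807% of all 29752 genes tested rose and 2.54% fell (3.35% in either direction). The gene that fell was Tpp1, the lysosomal tripeptidyl peptidase. In the same limma fit 7 members had an unadjusted p under 0.05 with a positive difference and 8 with a negative one, against 16.6% and 17.5% of all genes, so these counts lie near or below the background share. The signals of the groups did not overlap for 8 members that were higher with IL-4 and 11 that were lower, against 18.7% and 19.8% of all genes. Differences ran from -0.71 to 1.27 on the log2 scale, with 17 above 0, 29 below 0 and a median of -0.07, where 56.5% of all genes lay below 0 and their median was -0.05. All genes here include unnamed transcripts. Of the 19138 tested genes with a symbol, as every member has, 59.7% lay below 0, with a median of -0.08. Under 7 other settings of scaling, background correction or processed values, 12 to 21 members were above 0. In these bulk samples less RNA per cell and fewer cells of a kind cannot be told apart.

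**Figure D1:**
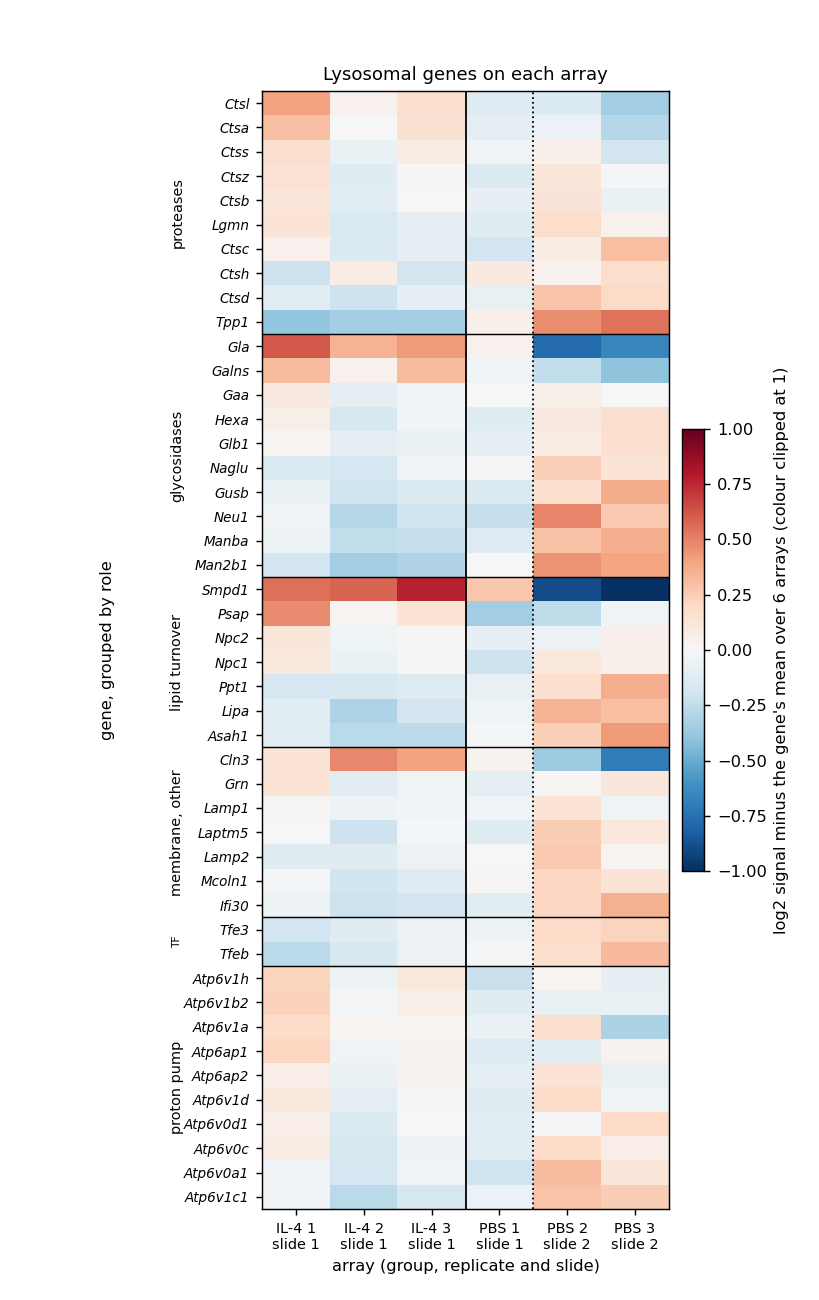
Log2 signal of the 46 lysosomal genes (rows, grouped by role) on the 6 arrays (columns, IL-4 left of PBS), as the difference from each gene's mean over the arrays, with colour clipped at 1. PBS replicate 1, on slide 1 with the IL-4 arrays, had a median of -0.09 over the members, nearer to the IL-4 arrays (0.06, -0.12 and -0.03) than to PBS replicates 2 and 3 (0.14 and 0.09).

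Within slide 1 the balance of signs turned round. There 29 members were above 0 and 17 below, with a median of 0.08, while 48.8% of all genes were below 0 and the median of all genes was 0.01. Under the same other settings 25 to 30 members were above 0 within slide 1, with medians of 0.005 to 0.094. The median was 0.020 with quantile normalization, 0.018 in the deposited value table and 0.005 with normexp and quantile. All 3 IL-4 arrays exceeded PBS replicate 1 for 18 members, against 30.5% of all genes, and all 3 were under it for 12 members, against 25.5%. The 12 members that were below 0 over all arrays and above 0 within slide 1 were Ctsc, Lgmn, Glb1, Hexa, Neu1, Lamp1, Laptm5, Grn, Atp6v1d, Atp6v0a1, Atp6v0c and Atp6v0d1, and 0 members turned the other way. Of all 29752 genes tested, 4529 turned as these 12 did and 2214 turned the other way. PBS replicate 1 was lower than the mean of PBS replicates 2 and 3 for 38 of the 46 members, as it was for 59.8% of all genes, and the median gap was -0.20 for the members and -0.08 for all genes. For the tested genes with a symbol that gap was -0.11. The sign of the members' median thus differed between the comparison over all arrays (-0.07) and the comparison within slide 1 (0.08). Over all arrays that median was close to the one of tested genes with a symbol (-0.08). With slide as a block in limma, 0 members were called either way, where 0.0303% of all genes were (0.0202% higher and 0.0101% lower), and the lowest adjusted p among the members was 0.269. In that fit Gla and Psap had an unadjusted p under 0.05 with a positive difference (2 members, against 4.39% of all genes) and Tpp1 with a negative one (1 member, against 5.82%).

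**Figure D2:**
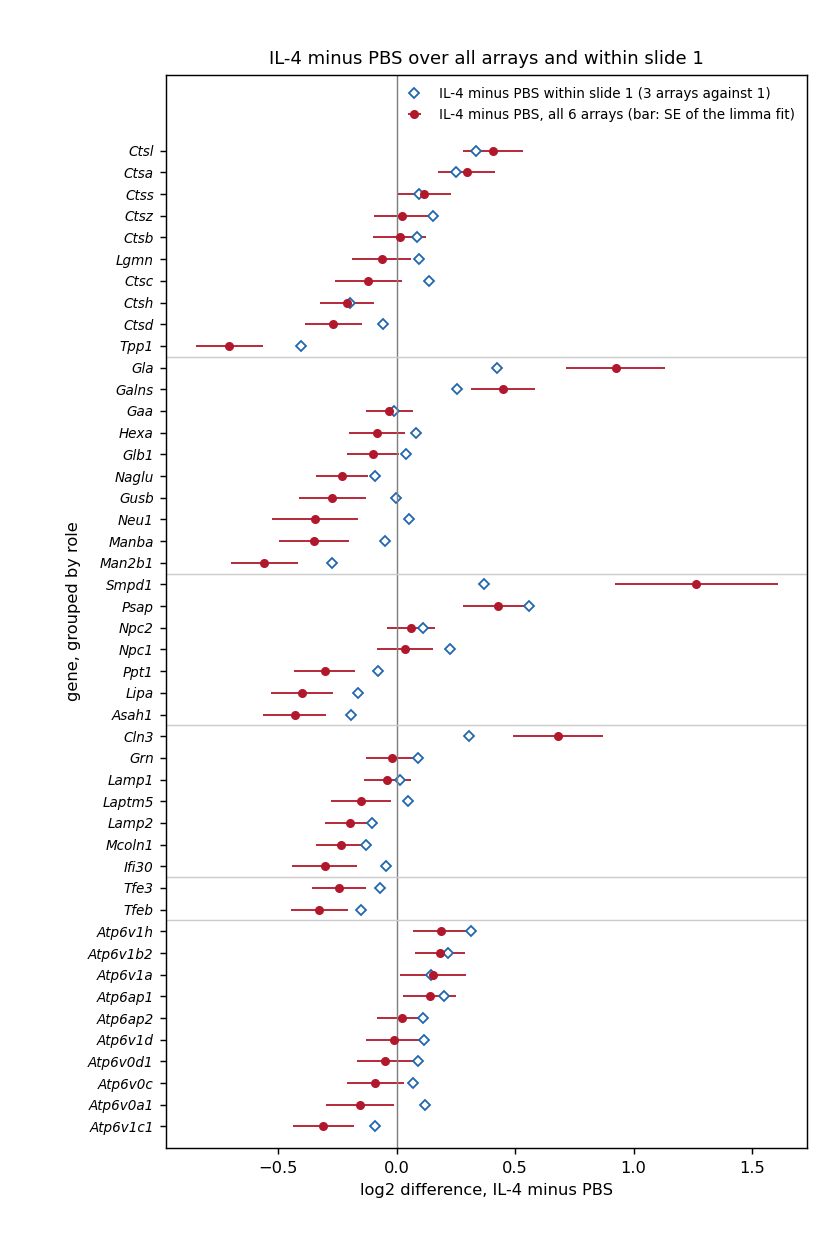
Log2 difference, IL-4 minus PBS, of each lysosomal gene (rows, grouped by role and sorted within it), over all 6 arrays with the SE of the limma fit as bars (filled circles) and within slide 1 (open diamonds). Tpp1 lies on the same side of 0 in both, at -0.71 and -0.41, while Smpd1 is at 1.27 over all arrays and at 0.37 within slide 1.

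Among the proteases Tpp1 was the one gene that passed, and the cathepsins stayed close to 0 or differed by less than the test could call. Tpp1 removes tripeptides from the ends of proteins, and its loss in humans causes a neuronal ceroid lipofuscinosis. Its log2 signal was 0.70, 0.75 and 0.75 with IL-4, against 1.14, 1.56 and 1.63 with PBS. All 3 IL-4 arrays lay below all PBS arrays, and PBS replicate 1 was the lowest of its group. It fell by 0.71 ± 0.14 (SE), to 0.612 of its PBS signal, with an adjusted p of 0.045. Within slide 1 the difference was -0.41, and with slide as a block the adjusted p was 0.269. Leaving out any IL-4 array or PBS replicate 2 or 3 ended the call, with differences between -0.72 and -0.61, while without PBS replicate 1 it was called at -0.86.

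Ctsl encodes cathepsin L, an endopeptidase that also acts outside the lysosome. Its log2 signal was 6.44, 6.07 and 6.20 with IL-4, against 5.90, 5.90 and 5.69 with PBS. The groups did not overlap, and PBS replicates 1 and 2 were level. The difference of 0.41 ± 0.13 (SE) had an adjusted p of 0.077, and within slide 1 it was 0.33. Ctsb, cathepsin B, one of the most widely used lysosomal cysteine proteases, had log2 signals of 6.71, 6.48 and 6.60 with IL-4, against 6.51, 6.72 and 6.52 with PBS. These groups overlapped throughout, and the difference of 0.01 had a 95% interval of -0.25 to 0.27. Ctsd, the aspartic protease cathepsin D, had log2 signals of 4.54, 4.44 and 4.56 with IL-4, against 4.58, 4.94 and 4.84 with PBS. PBS replicate 1 lay just above the highest IL-4 array, and the other PBS arrays were higher still. Its difference was -0.27 (adjusted p = 0.160) over all arrays and -0.06 within slide 1.

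The other proteases differed by 0.30 or less on the log2 scale. The difference was 0.30 for Ctsa, which protects β-galactosidase and neuraminidase in a complex, and 0.25 within slide 1. It was 0.11 for Ctss, the cathepsin that trims the invariant chain of MHC class II, and 0.02 for Ctsz, an exopeptidase. It was -0.06 for Lgmn, the asparaginyl endopeptidase that matures several cathepsins, -0.12 for Ctsc, which activates granule serine proteases, and -0.21 for Ctsh, an aminopeptidase. Over the 10 proteases 5 differences were above 0 and 5 below, and within slide 1 there were 7 above and 3 below. With quantile normalization these counts were 2 above and 8 below over all arrays, and 5 and 5 within slide 1.

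**Figure D3:**
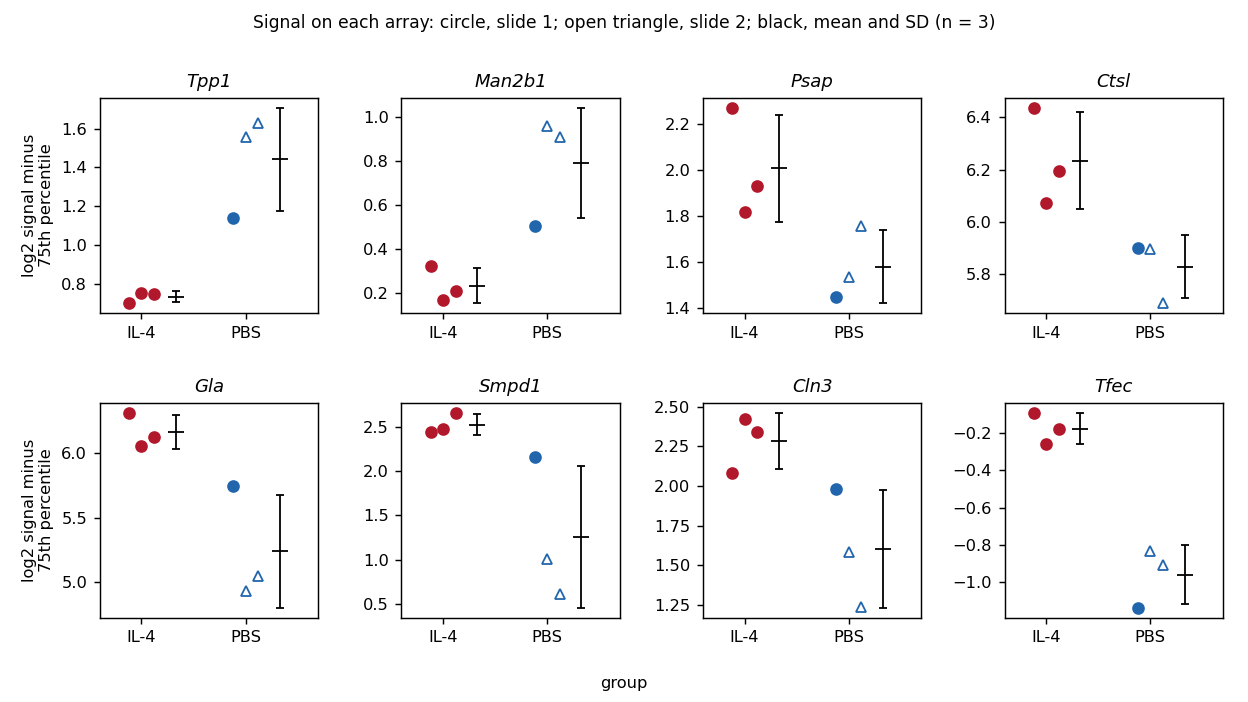
Log2 signal relative to the array's 75th percentile on each array (IL-4 left of PBS in every panel) for 7 lysosomal members and for Tfec, with the mean and SD of 3 arrays beside the points; filled circles are slide 1 and open triangles slide 2, and each panel has its own axis. For Smpd1, Gla and Cln3 the filled PBS point lies under the IL-4 points and above both slide 2 points, and for Tfec it is the lowest array.

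Among the enzymes that cut sugar or sulfate groups, Gla and Galns had the positive differences and the other 8 were below 0 (7 with the 75th percentile taken over the brighter probes), with none past the threshold. Gla encodes α-galactosidase A, which removes terminal galactose from globotriaosylceramide and is deficient in Fabry disease. Its log2 signal was 6.31, 6.05 and 6.13 with IL-4, against 5.74, 4.93 and 5.05 with PBS. The groups did not overlap, and PBS replicate 1 lay nearer to the IL-4 arrays than to its own group. The difference of 0.92 ± 0.21 (SE), 1.90-fold, had an adjusted p of 0.052, and within slide 1 it was 0.42. Galns, a sulfatase for keratan sulfate and chondroitin sulfate, had log2 signals of 2.26, 1.98 and 2.25 with IL-4, against 1.91, 1.69 and 1.54 with PBS. The lowest IL-4 array stood just above PBS replicate 1. Its difference was 0.45 (adjusted p = 0.071) over all arrays and 0.25 within slide 1.

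Man2b1, the lysosomal α-mannosidase, had log2 signals of 0.32, 0.17 and 0.21 with IL-4, against 0.50, 0.96 and 0.91 with PBS. Every IL-4 array was below every PBS array, with PBS replicate 1 the lowest of its group. The difference was -0.56 ± 0.14 (SE, adjusted p = 0.058), and within slide 1 it was -0.27. Manba, the β-mannosidase that acts after it on glycoproteins, had log2 signals of 1.72, 1.53 and 1.55 with IL-4, against 1.65, 2.07 and 2.14 with PBS. PBS replicate 1 lay among the IL-4 arrays here, and the difference was -0.35 (adjusted p = 0.138) over all arrays and -0.05 within slide 1. Neu1, the lysosomal sialidase that works in the complex held by cathepsin A, had log2 signals of 3.73, 3.49 and 3.57 with IL-4, against 3.54, 4.26 and 4.03 with PBS. Again PBS replicate 1 lay among the IL-4 arrays, so that a difference of -0.35 (adjusted p = 0.209) over all arrays became 0.05 within slide 1.

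The other 5 glycosidases had differences between -0.27 and -0.03 over all arrays and between -0.09 and 0.08 within slide 1. The values over all arrays were -0.27 for Gusb, the β-glucuronidase, -0.23 for Naglu, which degrades heparan sulfate, -0.10 for Glb1, the β-galactosidase, -0.08 for Hexa, the α subunit of β-hexosaminidase, and -0.03 for Gaa, which breaks down glycogen. For Gaa the 95% interval was -0.26 to 0.20. Over the 10 genes the median was -0.17 over all arrays and 0.02 within slide 1, where 5 were above 0 and 5 below.

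The genes of lipid turnover held both the largest positive difference of the set and 3 of its negative ones. Smpd1 encodes acid sphingomyelinase, which turns sphingomyelin into ceramide. Its log2 signal was 2.44, 2.47 and 2.65 with IL-4, against 2.16, 1.00 and 0.61 with PBS. The IL-4 arrays were close together, whereas PBS replicate 1 stood 1.35 above the mean of PBS replicates 2 and 3. The difference of 1.27 ± 0.34 (SE), 2.40-fold, had the largest SE among the members and an adjusted p of 0.063. Within slide 1 it was 0.37. Asah1, the acid ceramidase that takes ceramide further to sphingosine, had log2 signals of 1.50, 1.35 and 1.36 with IL-4, against 1.60, 1.86 and 2.05 with PBS. The groups did not overlap, though PBS replicate 1 lay close to the highest IL-4 array. The difference was -0.43 (adjusted p = 0.075) over all arrays and -0.19 within slide 1.

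Psap encodes prosaposin, the precursor of the saposins that present sphingolipids to their hydrolases. Its log2 signal was 2.27, 1.82 and 1.93 with IL-4, against 1.45, 1.54 and 1.76 with PBS. Here PBS replicate 1 was the array farthest from the IL-4 group, and PBS replicate 3 lay just below the lowest IL-4 array. The difference of 0.43 ± 0.15 (SE, adjusted p = 0.091) was 0.56 within slide 1, the largest within-slide difference of the members (adjusted p = 0.383 with slide as a block). Lipa, the acid lipase that frees cholesterol from its esters, had log2 signals of 0.93, 0.74 and 0.87 with IL-4, against 1.01, 1.39 and 1.35 with PBS. The IL-4 arrays lay below all PBS arrays, by a small margin for PBS replicate 1, and the difference was -0.40 (adjusted p = 0.082) over all arrays and -0.16 within slide 1. Ppt1, which removes palmitate from proteins, differed by -0.31 over all arrays and by -0.08 within slide 1. The cholesterol exporters Npc1 and Npc2 differed by 0.03 and 0.06 over all arrays and by 0.23 and 0.11 within slide 1.

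Of the genes for membrane proteins and other lysosomal proteins, Cln3 was above 0 and the other 6 were below (4 to 6 under the other settings), again with none past the threshold. Cln3 encodes a lysosomal membrane protein that is lost in juvenile neuronal ceroid lipofuscinosis. Its log2 signal was 2.08, 2.43 and 2.34 with IL-4, against 1.98, 1.59 and 1.24 with PBS. PBS replicate 1 stood 0.57 above the mean of PBS replicates 2 and 3 and just below IL-4 replicate 1. The difference was 0.68 ± 0.19 (SE, adjusted p = 0.065), and within slide 1 it was 0.30. Lamp1, the heavily glycosylated protein that lines the lysosomal membrane and whose E-box promoter is printed above, had log2 signals of 6.05, 5.99 and 6.01 with IL-4, against 6.01, 6.17 and 6.00 with PBS. The groups overlapped, and the difference of -0.04 had a 95% interval of -0.27 to 0.19.

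Lamp2, which also serves chaperone-mediated autophagy, differed by -0.20, and Laptm5, a membrane protein of immune cells, by -0.15. Mcoln1, the calcium channel TRPML1, differed by -0.24, and Ifi30, the thiol reductase that opens disulfides for antigen processing, by -0.30. Grn, whose product progranulin is delivered to the lysosome and cut into granulins, differed by -0.02. Within slide 1 these 5 differences were -0.10, 0.05, -0.13, -0.05 and 0.09, in the same order.

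Both transcription factors of the set had lower signal on every IL-4 array than on any PBS array, as did 19.8% of all genes. Neither of the 2 passed the test. Tfeb was dim, with log2 signals of -3.52, -3.42 and -3.32 with IL-4, against -3.27, -3.08 and -2.93 with PBS. PBS replicate 1 was just above the highest IL-4 array. The difference was -0.33 (adjusted p = 0.106) over all arrays and -0.15 within slide 1. Tfe3 differed by -0.24 over all arrays (adjusted p = 0.167) and by -0.07 within slide 1. With normexp background correction and 75th percentile scaling, 1 of these 2 genes was above 0 within slide 1. Activity of both proteins is set largely by whether they enter the nucleus, which messenger RNA does not measure.

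The genes of the proton pump differed little, by -0.31 to 0.19 over all arrays with a median of 0.01, and none passed the test. In the V1 sector, Atp6v1a, the catalytic subunit, had log2 signals of 5.06, 4.90 and 4.91 with IL-4, against 4.81, 5.04 and 4.56 with PBS. The groups overlapped, with PBS replicate 3 the lowest array, and the difference was 0.15 (adjusted p = 0.446) over all arrays and within slide 1. Atp6v1h, a regulatory subunit, had log2 signals of 3.83, 3.56 and 3.71 with IL-4, against 3.39, 3.63 and 3.53 with PBS. Its difference of 0.19 over all arrays was 0.31 within slide 1, since PBS replicate 1 was the lowest array. Atp6v1b2, the other subunit of the nucleotide-binding ring, differed by 0.18 with groups that did not overlap. Atp6v1d, of the central stalk, differed by -0.01, and Atp6v1c1, which links the V1 and V0 sectors, by -0.31 (adjusted p = 0.135).

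In the V0 sector the differences were -0.16 for Atp6v0a1, which forms the proton path, -0.09 for Atp6v0c, of the proton-carrying ring, and -0.05 for Atp6v0d1, which couples the sectors. The accessory genes Atp6ap1 and Atp6ap2 differed by 0.14 and 0.02. Over all arrays 5 of the 10 pump genes were above 0 and 5 below. Within slide 1, 9 of the 10 were above 0, all but Atp6v1c1, with a median of 0.12, and all 3 IL-4 arrays exceeded PBS replicate 1 for 7 of them, where 30.5% of all genes showed this. That count of 9 was the same under all 8 settings of scaling, background correction and processed values, and 0 pump genes were called in either fit. Over all arrays 4 to 6 of the 10 were above 0 under these settings. Another 11 genes of the pump were tested among the other lysosomal genes described below. Within slide 1, 7 of these 11 were above 0 and 4 below, with a median of 0.01. All 3 IL-4 arrays exceeded PBS replicate 1 for 2 of these 11. The values within slide 1 rest on 1 PBS array, which was the lowest of the 6 arrays for Atp6v1h, Atp6v1b2, Atp6v1d, Atp6v0a1, Atp6ap1 and Atp6ap2.

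The members with more than 1 probe showed how far a value depends on the probe. Of the 46 members 36 had 1 probe, 9 had 2 and 1 had 3, and for 4 members the probes differed in sign. For Ctsa, whose brighter probe stood at 0.30, a dimmer probe to the same transcript fell by 0.52 ± 0.10 (SE, adjusted p = 0.044 over all probes) and was at -0.40 within slide 1. For Cln3 the 3 probes gave 0.68, 0.21 and -0.34, and 0.30, 0.15 and -0.28 within slide 1, so the direction of this gene rests on the probe chosen. The dimmer probe of Atp6v1a gave -0.03 and that of Gaa gave 0.14, each on the other side of 0 from the brighter one, and within slide 1 these were 0.10 and 0.05. For Asah1, Laptm5, Lamp2 and Tfe3 the dimmer probes gave -0.59, -0.44, -0.21 and -0.15, on the same side as the brighter ones, and -0.22, -0.10, -0.07 and -0.02 within slide 1. The brighter probe of Ctsd gave -0.27, and its dimmer probe gave -0.01 over all arrays and 0.01 within slide 1. For Atp6ap1 the brighter probe gave 0.14, and the dimmer one 0.04 over all arrays and 0.23 within slide 1.

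Of the other genes of lysosomal make-up and control, 87 were listed, 85 had a matched probe and 83 were tested. Of these 1 rose, 3 fell and 79 did not pass, against 0.807% and 2.54% of all genes. Their median was -0.15 over all arrays and 0.01 within slide 1, with 29 above 0 and 54 below over all arrays. Tfec, a relative of TFEB and TFE3 whose messenger RNA is known to be induced by IL-4 in mouse macrophages, had log2 signals of -0.09, -0.26 and -0.18 with IL-4, against -1.14, -0.83 and -0.91 with PBS. All IL-4 arrays were well above all PBS arrays, and PBS replicate 1 was the lowest. It rose by 0.78 ± 0.12 (SE, adjusted p = 0.028), and within slide 1 by 0.96 (adjusted p = 0.090 with slide as a block).

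Ctns, the exporter of cystine from the lysosome, had log2 signals of -0.53, -0.52 and -0.50 with IL-4, against 0.11, 0.20 and 0.18 with PBS. PBS replicate 1 stood with the other PBS arrays, and the gene fell by 0.68 ± 0.09 (SE, adjusted p = 0.026), close to the -0.63 within slide 1. Lamtor2, a subunit of the Ragulator complex that anchors mTORC1 at the lysosome, had log2 signals of 0.98, 0.91 and 0.96 with IL-4, against 1.44, 1.74 and 1.69 with PBS. It fell by 0.67 (adjusted p = 0.035), with -0.49 within slide 1 and no overlap of the groups. Tpcn1, an ion channel of endosomes and lysosomes, had log2 signals of 0.32, 0.27 and 0.24 with IL-4, against 0.71, 1.22 and 1.20 with PBS, where PBS replicate 1 was the lowest of its group. It fell by 0.76 (adjusted p = 0.044), with -0.43 within slide 1. With slide as a block Ctns, Lamtor2 and Tpcn1 had adjusted p-values of 0.131, 0.204 and 0.244. Among those not called, Ids, a sulfatase for heparan and dermatan sulfate, differed by -0.76 and Ctse, an aspartic protease, by -0.68 (adjusted p = 0.062 and 0.051), and within slide 1 by -0.55 and -0.36.

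**Figure D4:**
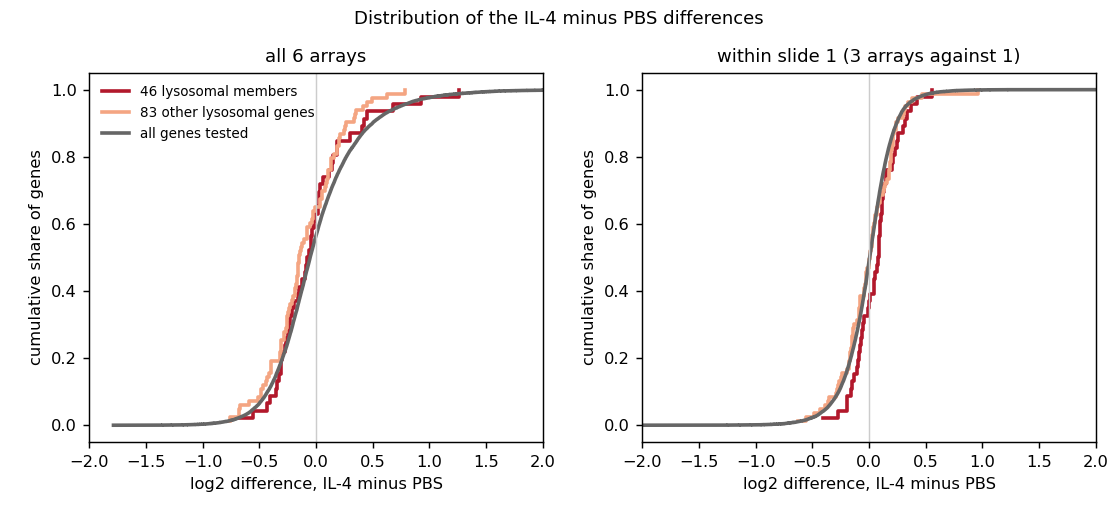
Cumulative share of genes (vertical axis) against the log2 difference, IL-4 minus PBS (horizontal axis), for the 46 lysosomal members, the 83 other lysosomal genes tested and all genes tested, over all 6 arrays (left panel) and within slide 1 (right panel). The members' median is -0.07 in the left panel and 0.08 in the right one, where that of all genes is -0.05 and 0.01.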

How the data were processed

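Per the file headers, the authors read the arrays with Agilent Feature Extraction 11.0.1.1, and the deposited files give a linear intensity for each spot. That program subtracted the background to give the processed signal, with no normalization between arrays. The deposited value table, on a log2 scale by its values with the same median in each column, served as an alternative. How it was normalized is not stated in the labels or headers. Of 44397 spots per array, 43020 were not controls. Spots with outlier flags were left out (87 to 394 per array), 0 spots were saturated, and replicate spots of a probe were averaged. Log2 signal is log2 of the processed signal minus its 75th percentile on the array. A probe was tested if it was well above background on all arrays of IL-4 or all of PBS, and the brightest probe stood for its gene. Gene symbols came from RefSeq tables of GRCm38.p6 through the probes' transcripts (27228 of 39429 probes). Levels of different probes were not compared, except to choose the brightest probe, to sum marker signals and to call a gene dim or bright.

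IL-4 and PBS were compared in limma 3.58.1 (R 4.3.3; lmFit, eBayes) over 29752 genes, without a block, and again with slide as a block. The script was tested on simulated data. The planned normexp correction (offset 50) used the median spot signal, because the mean was not among the columns used here. Other lysosomal genes were those of a written list; Cd68 and Tmem55b had no matched probe and Atp6v1c2 and Atp6v0a4 were not tested. The members, the lists and the tests were chosen with earlier results of these data known. All members are named; every array's value is given for called members, the 12 largest differences, the 5 largest within slide 1 and Ctsb, Ctsd, Lamp1, Tfeb and Atp6v1a. Of the other lysosomal genes, those called and the 6 largest differences are named. The number of arrays limits the precision.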

Additional observations from a re-analysis of the deposited data

How the results depend on the processing

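Differences over all arrays rest on 1 PBS array on the slide that holds IL-4 and on 2 PBS arrays on the other, and all values rest on 3 arrays a group. Of the lysosomal members, 0 rose and 1 fell as reported. Of these members 2 fell and 0 rose with quantile normalization, with normexp and quantile, and in the deposited value table (Man2b1 and Tpp1 each time). With median scaling 1 rose (Gla) and 1 fell. With normexp and the 75th percentile 3 rose and 3 fell, and with probes well above background on all 6 arrays 3 rose and 2 fell. None (0 in either direction) passed with the 75th percentile taken over the brighter probes (those above background on all arrays), no filter on dim probes, the mean of all probes, flagged spots kept, no first slide positions, slide as a block or slide 1 alone; the last 2 gave a median of 0.0837. Tpp1 was negative under all 20 alternatives (-0.86 to -0.41) and called under 8. The cause of these changes was not tested.

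For the other lysosomal genes (1 rose, 3 fell as reported), 2 and 10 passed with quantile normalization, 2 and 13 with normexp and the 75th percentile, 3 and 11 with normexp and quantile, and 2 and 10 with the filter on all 6 arrays. With median scaling 6 fell, and 8 fell in the deposited values. Counts were 0 and 0 without the filter, without first positions, with slide as a block and on slide 1 alone, the last 2 with a median of 0.00845. For all genes (240 rose, 757 fell, 75.9% of calls lower) the counts were 833 and 1804 with quantile normalization, 531 and 1202 with median scaling, 107 and 416 with the percentile taken over the brighter probes, 2032 and 2026 (49.9% lower) with normexp and the 75th percentile, 988 and 2108 with normexp and quantile, 674 and 1625 in the deposited table, 5 and 10 without the filter, 1830 and 1978 with the filter on all 6 arrays, and 117 and 488 with the mean of probes. They were 6 and 3 with slide as a block, 0 and 0 on slide 1 alone and without first positions, and 127 and 549 with flagged spots kept.

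Without 1 array at a time, 0 to 5 members rose and 0 to 15 fell, with a median of -0.15 to -0.03, and 0 to 8 other lysosomal genes rose and 0 to 28 fell, with a median of -0.21 to -0.10. Of all genes 0 to 5810 rose and 0 to 6847 fell. The highest counts came without PBS replicate 1, when group and slide coincide. In that fit 20 of the 46 members were called and 12657 of all genes, so the members were called at a share similar to all genes. With any other array left out, 0 members were called.

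Deviations of same-numbered arrays correlated at 0.08, -0.02 and 0.30, and those of the other IL-4 and PBS pairs at -0.19 to 0.06. With 3 arrays a group, these values do not settle whether replicate numbers pair the arrays. With the replicate number as a block, 2 members rose (Gla and Smpd1) and 1 fell (Tpp1), 4 other lysosomal genes rose and 7 fell, and 1804 of all genes rose and 1966 fell. The shorter motif CACGTG was in 14 members' promoters in place of 8.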
